A study of Mus musculus with 8 samples.

Results

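The 10 genes described here belong to the calcium machinery and were followed in sorted spinal cord astrocytes: the IP3 receptors Itpr1, Itpr2 and Itpr3, the store sensors Stim1 and Stim2, the entry channel Orai1, the endoplasmic reticulum pump Atp2a2, the plasma membrane pumps Atp2b1 and Atp2b4, and the sodium-calcium exchanger Slc8a1. They were chosen by gene symbol, matched by Ensembl identifier to the count tables, and make up 10 of the 39179 identifiers counted. All 10 passed the filter on low counts and were among the 14757 genes tested. The study asked how the potassium channel Kir4.1 (Kcnj10) in astrocytes bears on fast motor neurons, per its title. It compared 4 control libraries with 4 libraries from conditional knockout (cKO) mice. Both groups carried the Aldh1l1-GFP reporter used for sorting, were of mixed swiss-webster strain and were 12 to 14 days old. The control mice are labelled wild-type and, in the study's design, cre-negative, and whether they carried floxed alleles is not given in the sources used here. The cKO mice carried Aldh1l1-cre and Kir4.1 floxed/floxed alleles, so that cre was driven by the promoter of Aldh1l1, an astrocyte gene, which also drives the reporter. Libraries keep the numbers of their sample titles, which are S1, S2, S6 and S7 for control and S3, S4, S5 and S8 for cKO mice. Where 4 values are given for a group, they follow that order. The design calls the libraries biological replicates.

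Calcium signals in astrocytes arise largely inside the cell. Receptors coupled to Gq activate phospholipase C, which makes IP3, and IP3 opens IP3 receptors in the endoplasmic reticulum, with Itpr2 known as the main astrocyte form. When the store empties, STIM proteins in its membrane sense the loss and open ORAI channels in the plasma membrane. SERCA pumps such as Atp2a2 refill the store, while plasma membrane calcium ATPases (PMCA, the Atp2b genes) and sodium-calcium exchangers (the Slc8a genes) carry calcium out of the cell.

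The libraries held 13892736 (control S2) to 25065686 (cKO S8) reads in genes, with 17312 to 20470 genes detected, and 33.8% to 46.3% of those reads came from rRNA-like transcripts. Values are given as CPM, read counts scaled to a common library size after TMM adjustment. Kcnj10, the targeted gene, was at 1181, 2306, 1856 and 1937 CPM in control, and at 35.65, 27.17, 37.62 and 35.44 CPM in cKO. All 4 cKO libraries thus matched their label, with a log2 fold change of −5.74 ± 0.25 (SE, n = 4 and 4; adjusted p = 7.52e-08, edgeR, quasi-likelihood test, Benjamini-Hochberg adjustment). The labelled cell type was checked with 11 astrocyte markers, whose summed level was 16600 to 24090 CPM in control and 19180 to 23630 CPM in cKO libraries. Of these 11, 7 had log2 fold changes above 0 and 4 below, with a median of 0.08. An adjusted p of 0.05 in edgeR was passed by 2, both higher in cKO. Aldh1l1, whose promoter drives the reporter and cre, was at 131.4 to 151.5 CPM in control and 244.5 to 349.8 CPM in cKO (log2 fold change 1.01 ± 0.16, adjusted p = 0.0179). The water channel gene Aqp4 was at 1588 to 2454 CPM and 3373 to 5268 CPM (1.09 ± 0.18, adjusted p = 0.0244). Markers of other cells were also present. The summed level of 7 markers of oligodendrocyte precursors (OPC) was 311.5 to 1104 CPM in control and 221.5 to 459.9 CPM in cKO libraries, and that of 10 oligodendrocyte markers was 1480 to 2950 CPM and 983 to 2413 CPM. All 7 OPC and all 10 oligodendrocyte markers had log2 fold changes below 0, 5 and 3 of them at an unadjusted p under 0.05, and none was at 0 in any library. Neuron markers summed to 63.4 to 91.4 CPM and 39.98 to 77.2 CPM, and endothelial markers to 44.3 to 73.6 CPM and 24.3 to 57.6 CPM. The 6 fibroblast markers, 1 of which (Pdgfra) is also an OPC marker, summed to 124.3 to 614.2 CPM and 78.8 to 181.8 CPM. All 6 had log2 fold changes below 0 (median −1.70), and 3 of them had no counts in at least 1 library. Microglia markers summed to 28.3 to 47.3 CPM in control and 35.2 to 62.3 CPM in cKO, with 6 of 8 tested above 0. Mural markers summed to 31.0 to 52.4 CPM and 36.4 to 41.6 CPM, with 2 of 5 tested above 0. Ependymal markers summed to 5.64 to 26.3 CPM and 8.65 to 25.95 CPM, with 2 of 3 tested above 0. For 9 marker lists the mean log2 CPM was compared with an exact 2-sided permutation test, and no list passed (lowest adjusted p = 0.309). With 4 against 4 libraries the smallest p of this permutation test is 0.0286. A list alone at that value could not pass after adjustment over 9 lists, so the outcome cannot show that the lists were alike. In these bulk libraries, fewer cells of a type and less RNA per cell cannot be told apart.

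No member gene passed an adjusted p of 0.05 in edgeR's quasi-likelihood test, against 47 of all 14757 genes tested (0.318%). At an unadjusted p under 0.05 there were 2 members, Orai1 with the higher level in cKO and Atp2b4 with the lower, against a background of 9.81% of all genes. The same 2 genes were the members whose libraries did not overlap between groups, which held for 6.34% of all genes. DESeq2 on the same genes called 1 member, Orai1, against 2.26% of the genes with an adjusted p, and limma-voom called none. The authors' deposited table also has 1 member past an adjusted p of 0.05, Orai1, against 2.87% of the genes to which it gives an adjusted p. The median log2 fold change was −0.19 over the 10 members, of which 8 were below 0, and −0.02 over all genes tested.

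**Figure D1:**
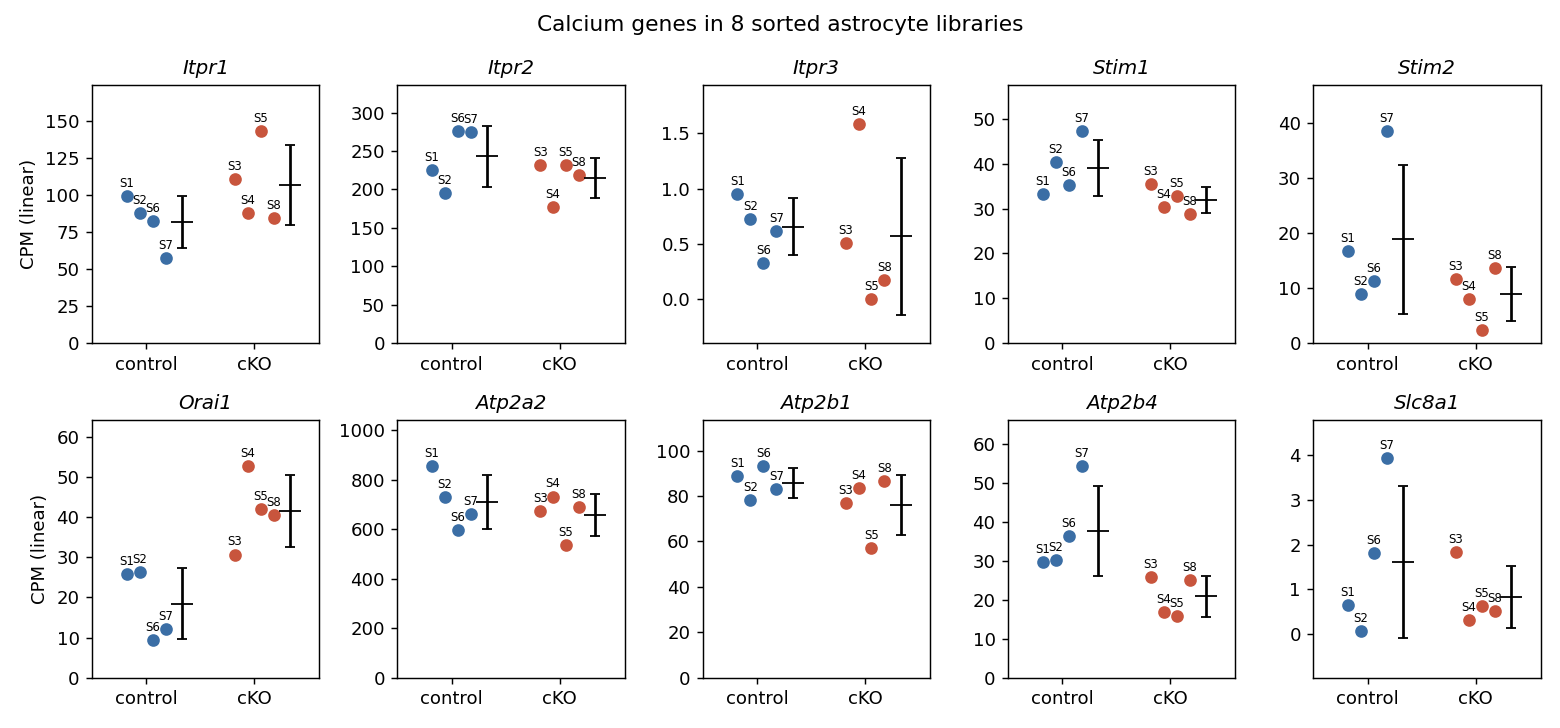
Level of each of the 10 calcium genes in every library, in CPM on a linear axis that differs between panels (blue, control; red, cKO; horizontal tick and bar, mean ± SD of 4 libraries). For Orai1 all cKO points lie above all control points, for Atp2b4 all lie below, and for the other 8 genes the groups overlap.

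Promoter windows taken from RefSeq are shown for Orai1 and Atp2b4, the 2 members whose groups did not overlap. Each is the 250 bases before a gene start in RefSeq on GRCm38.p6, written 5′ to 3′ on the gene's strand, with GGGCGG (the core of the GC box bound by Sp1-type factors) and its reverse complement CCGCCC in capitals. The Orai1 window is chr5:123014824-123015073 on the plus strand and the Atp2b4 window is chr1:133753748-133753997 on the minus strand.
Orai1: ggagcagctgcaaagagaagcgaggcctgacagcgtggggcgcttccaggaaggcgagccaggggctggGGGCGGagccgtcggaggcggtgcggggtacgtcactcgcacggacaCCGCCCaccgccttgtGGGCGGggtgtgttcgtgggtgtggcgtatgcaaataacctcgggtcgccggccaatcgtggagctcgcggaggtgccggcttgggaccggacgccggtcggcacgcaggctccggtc
Atp2b4: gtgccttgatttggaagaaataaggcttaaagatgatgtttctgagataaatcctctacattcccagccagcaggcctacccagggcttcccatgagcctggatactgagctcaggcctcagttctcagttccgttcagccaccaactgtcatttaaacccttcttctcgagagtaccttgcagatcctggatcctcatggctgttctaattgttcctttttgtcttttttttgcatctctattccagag
The Orai1 window has a GC content of 70.8%, 30 CG dinucleotides and 3 copies of GGGCGG, 2 on the printed strand and 1 on the other. The Atp2b4 window has a GC content of 45.6%, 2 CG dinucleotides and no GGGCGG on either strand. It lies inside the longer GENCODE gene model (chr1:133699457-133801041), and whether Atp2b4 transcripts start there in these cells was not tested. Of the members with a RefSeq entry, 7 of 9 windows hold GGGCGG on either strand, all but those of Atp2b4 and Slc8a1. Atp2b1 has 2 of these windows, so by gene it is 6 of 8. Of all 32851 windows of the same length, not limited to genes tested here, 32.7% hold it. The 7 windows have a GC content of 70.8% to 80.8%, and the median of all windows is 52.4%. Itpr1 and Atp2a2 have no entry. The cAMP response element TGACGTCA, its own reverse complement, stands in 1.55% of all windows, and the TATA box letters TATAAA, searched on both strands, in 12.4%, and neither was in a member window. These matches describe the letters only.

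Among the IP3 receptors, Itpr2 (chr6:146108299-146502223, minus strand, GRCm38) was the most abundant per kilobase of exon in every library. It stood at 226, 196, 276 and 275 CPM in control and at 231, 177, 232 and 219 CPM in cKO. The groups overlapped, with S2 and S4 lowest in their groups, and the log2 fold change was −0.18 ± 0.16 (SE, n = 4 and 4; 95% interval −0.54 to 0.18; adjusted p = 0.773, edgeR). As a fold, the interval runs from 0.690 to 1.13 times the control level. Itpr2 is the receptor on which most store release in astrocyte cell bodies is known to depend.

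Itpr1 (chr6:108213096-108551109, plus strand), the form best known from Purkinje neurons, was at 99.4, 87.6, 82.7 and 57.2 CPM in control. In cKO it was at 111, 88.0, 143 and 84.6 CPM. The means were 81.8 ± 17.8 and 106.7 ± 26.98 CPM (SD, n = 4 each), the groups overlapped, and the log2 fold change of 0.38 ± 0.21 had an adjusted p of 0.596 (edgeR). Without cKO S5, the highest library, it was 0.22. Per kilobase of exon, Itpr1 made up 14.3% to 26.5% of the IP3 receptor sum in control and 23.8% to 33.2% in cKO libraries. Itpr2 made up 73.1% to 85.4% and 66.8% to 76.1%. Both ranges overlap between groups. From the deposited FPKM group means, the Itpr2 share was 87.1% in control and 83.1% in cKO.

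Itpr3 (chr17:27057304-27122223, plus strand), the form typical of epithelial and taste cells, was close to the detection limit. It had 15, 10, 6 and 13 counts in control and 10, 35, 0 and 4 counts in cKO. The 0 in cKO S5 allows a level of up to 0.171 CPM (3 counts of that library), and the highest library, cKO S4, was at 1.59 CPM. No difference was detectable at this depth, with a 95% interval of −2.47 to 2.08 for the log2 fold change of −0.20 (adjusted p = 0.971, edgeR). Its direction turned when control S1, cKO S5 or cKO S8 was left out, to 0.03, 0.21 and 0.11.

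The summed IP3 receptor level was 21.0 ± 2.15 CPM per kilobase in control and 20.4 ± 2.86 in cKO libraries (SD, n = 4 each). The sum therefore differed by less than the spread between libraries. Ryanodine receptors, the other class of store release channel, were far lower, at a summed 1.67 ± 0.498 and 1.05 ± 0.327 CPM per kilobase. Ryr2 had the larger group means on counts, at 14.7 to 61.7 CPM in control and 6.04 to 25.9 CPM in cKO libraries, and Ryr1 did not exceed 1.141 CPM in any. By the deposited FPKM group means Ryr3 was the larger in cKO, with 57.8% of the ryanodine receptor sum against 40.7% for Ryr2, and per kilobase of counts Ryr3 exceeded Ryr2 in control S7 and cKO S5.

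**Figure D2:**
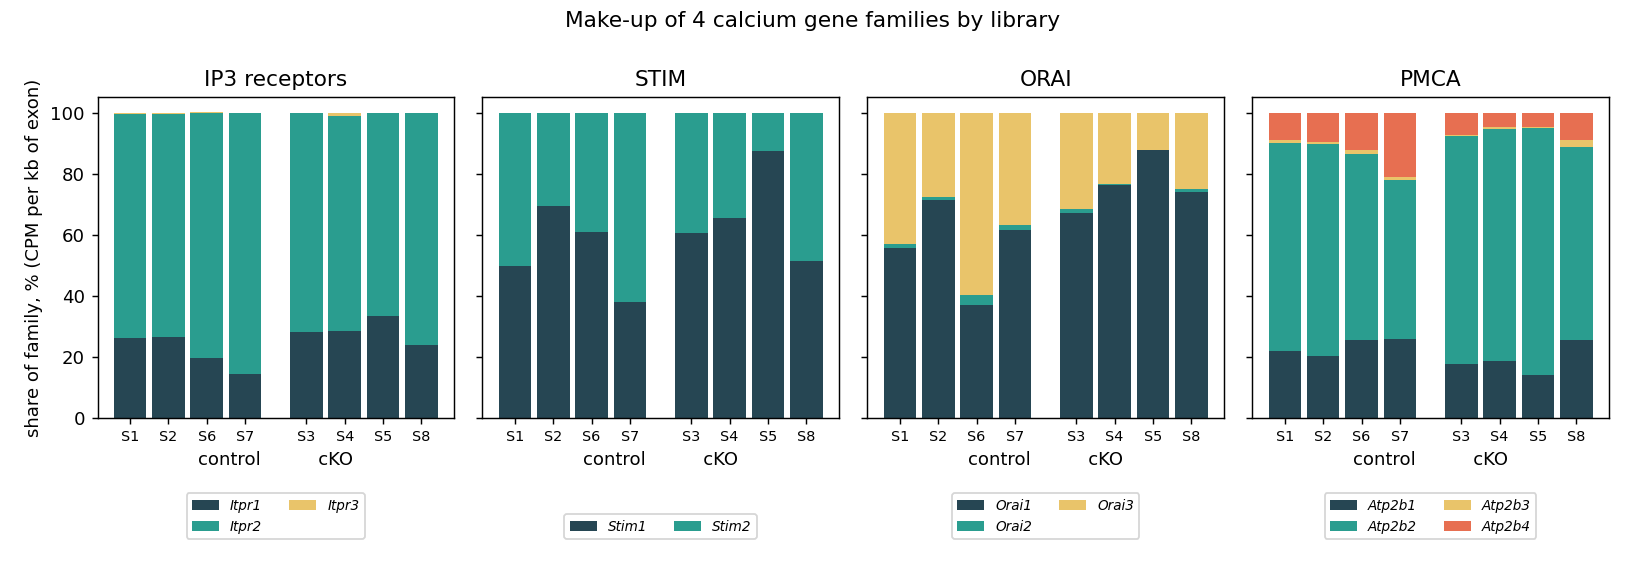
Share of each gene in its family, in percent of the family's summed CPM per kilobase of exon, one bar per library, control left and cKO right. Itpr2 takes the larger part of the IP3 receptors and Atp2b2 that of the plasma membrane pumps (PMCA) in every library, and the Orai1 share is 36.8% to 71.4% in control and 67.2% to 87.7% in cKO libraries.

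In store-operated entry, Orai1 had the member difference with the lowest p. Orai1 (ENSMUSG00000049686, chr5:123015074-123030456, plus strand) encodes the pore subunit of the calcium release-activated channel, and its promoter is printed above. It was at 25.8, 26.3, 9.50 and 12.2 CPM in control and at 30.7, 52.7, 42.1 and 40.5 CPM in cKO. All 4 cKO libraries were above all 4 control libraries, but cKO S3 was only just above control S2, and the control libraries fell into a lower pair, S6 and S7, and a higher pair. The means were 18.4 ± 8.84 and 41.5 ± 9.01 CPM (SD, n = 4 each), a 2.26-fold difference with a 95% interval of 1.38 to 3.68.

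The log2 fold change of Orai1 was 1.17 ± 0.33 and did not pass the threshold in edgeR's quasi-likelihood test (adjusted p = 0.206). The exact 2-sided permutation test of log2 CPM gave p = 0.0286, the smallest that 4 against 4 libraries allow. Any gene whose groups do not overlap gets this value, so it only restates the separation of the groups. DESeq2 gave an adjusted p of 0.0250 on the same counts, and the authors' deposited table gives a log2 fold change of 0.96 with an adjusted p of 0.0329. Across 18 other settings the log2 fold change stayed between 0.96 (without control S6) and 1.39 (without control S2), with adjusted p between 0.0250 and 0.489. The deposited FPKM values of Orai1 also lay apart, at 8.35 to 30.2 in control and 32.1 to 54.1 in cKO. Its exons share 7 bases with the antisense model Gm2479, which the tables do not count. Control S6 and S7, where Orai1 was lowest, had the highest control sums of OPC markers (687.5 and 1104 CPM) and of fibroblast markers (614.2 and 248.4 CPM). They also had the lowest astrocyte marker sums of all libraries (16610 and 16600 CPM). Control S1 had the highest astrocyte marker sum (24090 CPM) and Orai1 at 25.8 CPM. The part of all these markers was not tested.

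The paralogues of Orai1 did not show the same pattern of levels. Orai3, which also forms store-operated and arachidonate-regulated channels, was at 6.82 to 18.7 CPM in control and 5.47 to 15.1 CPM in cKO libraries (log2 fold change −0.07 ± 0.39, adjusted p = 0.970, edgeR). Orai2 was below 2.37 CPM in all libraries. The difference between the Orai1 and Orai3 changes was not tested. Per kilobase, the Orai1 share of the ORAI sum was 56.3% ± 14.6 in control and 76.3% ± 8.53 in cKO libraries (SD, n = 4 each), with control S2 (71.4%) inside the cKO range.

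The sensors of the store were both present. Stim1 (chr7:102267806-102437319, plus strand), the main trigger of ORAI channels, was at 33.3, 40.4, 35.4 and 47.2 CPM in control and at 35.5, 30.3, 32.9 and 28.9 CPM in cKO. The groups overlapped only through cKO S3, which lay above control S1 and S6, and the log2 fold change was −0.29 ± 0.19 (95% interval −0.71 to 0.12; adjusted p = 0.660, edgeR). Per kilobase, Stim1 and Stim2 were close in control, where Stim2 made up 45.6% ± 13.6 of their sum, against 33.9% ± 15.4 in cKO libraries (SD, n = 4 each), with overlapping ranges.

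Stim2 (chr5:53998499-54121057, plus strand), known as the sensor of small losses that sets resting calcium, varied most among the well expressed members. It was at 16.6, 8.88, 11.3 and 38.4 CPM in control and at 11.5, 7.89, 2.34 and 13.6 CPM in cKO. Control S7 stood far above every other library, and cKO S5 was the lowest. The log2 fold change was −1.09 ± 0.53 (adjusted p = 0.532, edgeR) and moved to −0.46 without control S7, to −0.77 without cKO S5 and to −0.44 on the deposited FPKM. OPC and oligodendrocyte markers were also highest in control S7, at summed levels of 1104 and 2950 CPM. In cKO S5, where Stim2 was lowest, these sums were 246.9 and 2413 CPM, and the oligodendrocyte sum was above those of control S1, S2 and S6. The part of these markers in the Stim2 values was not tested.

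For refilling the store, Atp2a2 (chr5:122453513-122502225, minus strand), which encodes SERCA2, was the most abundant of the 10 genes per kilobase in every library. It was at 854, 728, 595 and 661 CPM in control and at 674, 732, 537 and 688 CPM in cKO. The groups overlapped almost fully, and the log2 fold change was −0.11 ± 0.16 (adjusted p = 0.873, edgeR), with a fold interval of 0.726 to 1.18. Its relatives were close to 0. Atp2a1 did not exceed 0.544 CPM and Atp2a3 was counted in control S1 only, at 0.570 CPM, so that Atp2a2 made up at least 99.87% of the SERCA sum per kilobase. The Golgi pump Atp2c1 was at 76.9 to 142.8 CPM over all libraries (adjusted p = 0.842, edgeR), while Atp2c2 had at most 2.64 CPM.

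For extrusion, Atp2b4 (ENSMUSG00000026463, chr1:133699457-133801041, minus strand), a plasma membrane pump also known as PMCA4, was the member whose cKO libraries all lay below control. It was at 29.8, 30.4, 36.4 and 54.4 CPM in control and at 25.8, 16.8, 15.9 and 25.04 CPM in cKO. The distance between the groups was small, from 29.8 CPM in control S1 to 25.8 CPM in cKO S3, and control S7 stood above the rest. The means were 37.7 ± 11.5 and 20.9 ± 5.25 CPM (SD, n = 4 each).

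The log2 fold change of Atp2b4 was −0.85 ± 0.26 (95% interval −1.42 to −0.29) and did not pass the threshold in edgeR's quasi-likelihood test (adjusted p = 0.259) or in DESeq2 (adjusted p = 0.0720). The exact 2-sided permutation test of log2 CPM gave p = 0.0286, the smallest possible here, which likewise only restates that the groups did not overlap. The authors' deposited table gives −0.75 with an adjusted p of 0.0632. Without control S7 the log2 fold change was −0.62. On the deposited FPKM it was −0.28, and there the groups overlapped, at 5.17 to 21.5 in control and 5.94 to 12.4 in cKO. As with Stim2, the library highest by CPM, control S7, had the highest OPC and oligodendrocyte marker sums. The lowest by CPM, cKO S5, had sums of 246.9 and 2413 CPM for these markers, and their part was not tested.

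Atp2b1 (chr10:98914406-99026143, plus strand), the widely expressed housekeeping form, was the steadiest of the pumps in control. It was at 88.7, 78.1, 93.1 and 83.2 CPM in control and at 77.0, 83.5, 57.2 and 86.8 CPM in cKO. Only cKO S5 lay clearly below the other libraries, and the log2 fold change was −0.17 ± 0.17 (adjusted p = 0.792, edgeR). Neither Atp2b1 nor Atp2b4 was the most abundant PMCA. Atp2b2, a fast pump known from hair cells and cerebellum, was at 138.1 to 229.6 CPM in control and 178.4 to 286.0 CPM in cKO libraries (log2 fold change 0.38 ± 0.20, adjusted p = 0.562, edgeR).

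Per kilobase, Atp2b2 made up 62.6% ± 8.11 of the PMCA sum in control and 73.8% ± 7.67 in cKO libraries (SD, n = 4 each). The share of Atp2b1 was 23.3% ± 2.75 and 18.9% ± 4.82. The share of Atp2b4 was 13.04% ± 5.50 and 6.47% ± 2.16, with control S1 at 9.11% and cKO S8 at 9.12%, so that the groups met there. The PMCA sum itself was 24.4 ± 2.40 and 26.97 ± 3.22 CPM per kilobase, and its ranges overlapped between groups (21.1 to 26.7 and 22.4 to 29.7). These shares are descriptions and were not tested.

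Slc8a1 (chr17:81373105-81738377, minus strand), the sodium-calcium exchanger NCX1, was close to the detection limit, with 10, 1, 33 and 83 counts in control and 36, 7, 11 and 12 counts in cKO. Control S7 alone held most of the control counts. The log2 fold change of −0.98 ± 0.99 (adjusted p = 0.800, edgeR) went to −0.03 without that library. Its paralogues were low as well. Slc8a2 was at 1.46 to 9.00 CPM in control and 0 to 1.59 CPM in cKO libraries, and Slc8a3 at 1.27 to 15.1 and 0.171 to 3.55 CPM. All 3 exchangers had their highest level in control S6 or S7, the 2 libraries with the highest OPC marker sums (687.5 and 1104 CPM), and the part of those markers was not tested. The mitochondrial exchanger Slc8b1 had higher group means per kilobase than these 3 genes, at 5.49 in control and 5.67 in cKO.

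**Figure D3:**
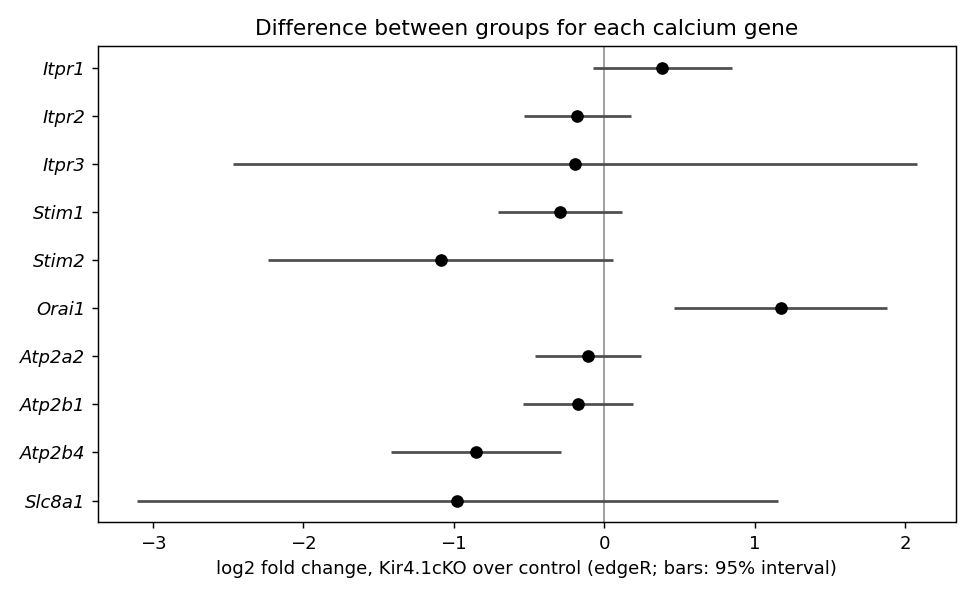
Log2 fold change of each of the 10 genes, cKO over control, from edgeR (points) with its 95% interval (bars); 0 means no difference. The intervals of Orai1 (0.47 to 1.88) and Atp2b4 (−1.42 to −0.29) leave out 0 before adjustment for 14757 genes, and those of Itpr3 and Slc8a1 are the widest.

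The order of the 10 genes was set on CPM per kilobase of merged exon, which can be compared between genes. In control libraries Atp2a2 was first at 116.7 ± 18.2 CPM per kilobase, followed by Itpr2 at 16.4 ± 2.66 (SD, n = 4 each), and neither overlapped its next neighbour. Orai1 (8.03 ± 3.85), Atp2b1 (5.64 ± 0.429), Itpr1 (4.46 ± 0.972), Stim1 (3.77 ± 0.598), Stim2 (3.66 ± 2.62) and Atp2b4 (3.08 ± 0.939) followed, and each overlapped the next of these in range. Slc8a1 and Itpr3 came last, at 0.0858 and 0.0727 CPM per kilobase, below Atp2b4 in every library. By the deposited FPKM group means of control, Itpr1, Stim1, Stim2 and Atp2b4 stood at ranks 7, 5, 8 and 6, so their order depends on the measure.

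In cKO libraries Orai1 stood second, at 18.1 ± 3.93 CPM per kilobase, above Itpr2 at 14.5 ± 1.77 in 3 of 4 libraries, and the ranges of these genes overlapped. Atp2a2 remained first at 108.1 ± 13.9 CPM per kilobase, above Orai1 in all 4 libraries. Itpr1 (5.83 ± 1.47) and Atp2b1 (5.00 ± 0.872) came next, followed by Stim1 (3.07 ± 0.283), Stim2 (1.72 ± 0.963) and Atp2b4 (1.71 ± 0.429). By the deposited FPKM group means Itpr2 was second in both groups, at 62.8 and 58.8. Orai1 came after it, at 19.7 and 41.9, so the exchange of places depends on the measure. On FPKM in cKO, Atp2b1 also came before Itpr1, and Atp2b4 before Stim2.

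Beyond the 10 genes, 85 further calcium genes in 7 lists were examined, of which 70 were tested. None passed an adjusted p of 0.05 in edgeR's quasi-likelihood test, 8 were at an unadjusted p under 0.05 (4 higher and 4 lower in cKO), and DESeq2 called 1, Itpkb. The 8 are 11.4% of the 70, near the 9.81% of all genes tested, and DESeq2 called 2.26% of all genes. The libraries of 3 of the 70, Itpkb, Plce1 and Tmem110, did not overlap between groups, which held for 6.34% of all genes tested. The median log2 fold change of the 70 was −0.05. Among 15 genes of IP3 production and removal, 12 had log2 fold changes above 0 and 3 below, with a median of 0.32 and 3 at an unadjusted p under 0.05 (20.0%, against 9.81% of all genes). Among 9 tested genes of mitochondrial calcium uptake, 8 were below 0, with a median of −0.17 and none at an unadjusted p under 0.05. Of all genes tested, 48.4% were above 0 and 51.6% below.

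Itpkb, a kinase that phosphorylates and so removes IP3, was at 242, 216, 203 and 221 CPM in control and at 271, 321, 333 and 371 CPM in cKO. The groups lay apart, but the log2 fold change of 0.55 ± 0.15 did not pass the threshold in edgeR's test (adjusted p = 0.189). Plce1, a phospholipase C, also lay apart, at 91.3 to 171.7 CPM in control and 175.9 to 196.8 CPM in cKO libraries (log2 fold change 0.45 ± 0.19, adjusted p = 0.448, edgeR). Plcd3, another phospholipase C, was low, at 1.54 ± 1.28 and 4.57 ± 3.05 CPM (SD, n = 4 each).

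Tmem110, which encodes a protein that aids STIM1 at contacts with the plasma membrane, was at 24.0 to 43.8 CPM in control and 14.1 to 23.7 CPM in cKO libraries, just apart (log2 fold change −0.73 ± 0.27, adjusted p = 0.378, edgeR). Trpc1, a cation channel linked to store-operated entry, was at 2.82 ± 1.35 and 7.96 ± 3.58 CPM (adjusted p = 0.292, edgeR). Ryr2 (log2 fold change −1.09), Slc8a2 (−2.42) and the calcium sensor Ncs1 (−1.03) had lower means in cKO with overlapping libraries, and their adjusted p were 0.435, 0.416 and 0.466 (edgeR).

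**Figure D4:**
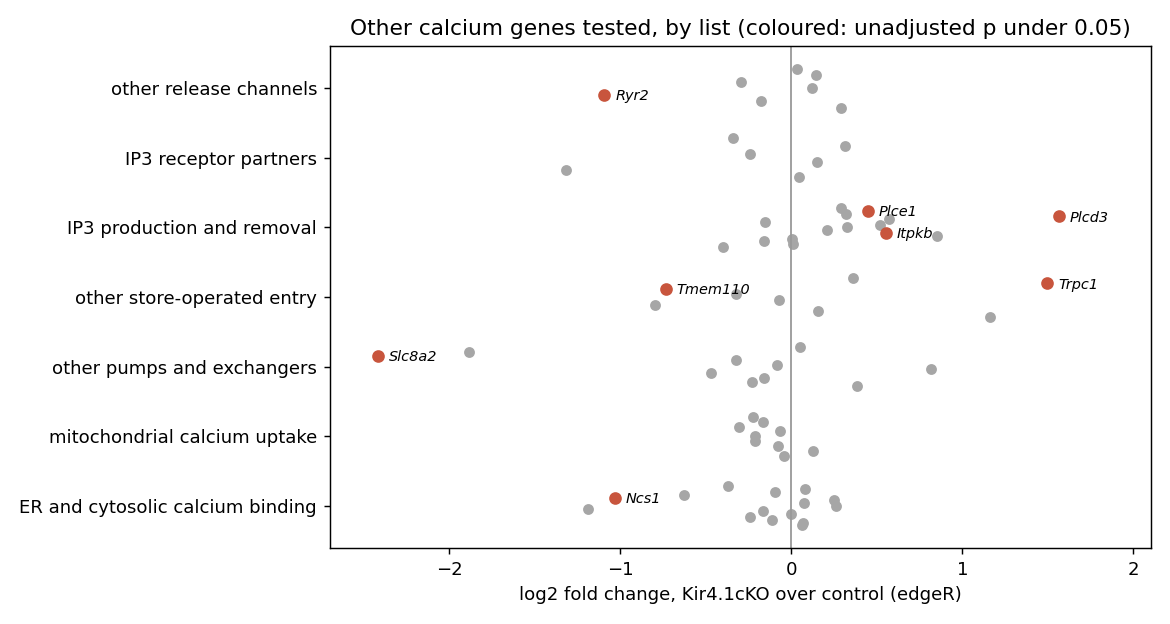
Log2 fold changes (cKO over control, edgeR) of the 70 other calcium genes tested, one point per gene, in 7 lists on the vertical axis (red and named, unadjusted p under 0.05; grey, the rest). Points of the IP3 production and removal list lie mostly right of 0 (12 of 15) and those of mitochondrial uptake mostly left (8 of 9).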

How the data were processed

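Of the files used here, the count tables give whole-number read counts per Ensembl gene and library, deposited by the authors. The submitters' processing notes name FastQC 0.11.4, TopHat2 2.0.11, Bowtie2 2.2.3, HTSeq 0.6.1p1, DESeq2 1.14.1, Cuffnorm, Cufflinks 2.2.1 and GRCm38. The annotation release and strand setting are not given in the sources used here. Spinal cords without meninges were dissociated with papain, GFP+ cells were sorted, and total RNA was turned into cDNA with a NuGEN kit (RNA-Seq V2), per the labels. The last 5 lines of each table summarise reads assigned to no gene, and were left out. They held 56.4% to 61.7% of all reads, and the ambiguous reads among them made up 0.723% to 0.934% of all reads. Reads shared by overlapping genes are therefore not in the counts, and without a known strand setting a gene and an antisense partner cannot be told apart. Exons of other genes covered at most 2.58% of a member's exon length.

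The authors also deposited FPKM values, scaled for length and depth. Only 3 of the 8 FPKM columns, S1, S2 and S3, tracked the count table that bears their name (11824 genes compared), and each column was most like a library of its own group. FPKM was therefore used by group only, and no column was reassigned. The authors' deposited DESeq2 table holds group means of scaled counts (a signal), log2 fold changes with their standard error and Wald statistic (scores), and p-values, per the file headers. Its group means were recomputed from the counts to within 2.19e-09 (relative difference).

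The tests on counts used edgeR 4.0.16 (quasi-likelihood fit, TMM, filterByExpr with a minimum count of 10, no covariate) in R 4.3.3, with Benjamini-Hochberg adjustment over all 14757 genes and a threshold of 0.05. The test was tested on simulated data. SEs were taken from the F statistic. DESeq2 1.42.0 and limma 3.58.1 were alternatives, as were other scalings, filters and leaving out each library. So were FPKM with pseudocounts of 1 and 0.1 (log2 scale) and an Xist covariate (Xist RNA marks female cells). Xist was at 0.437 CPM in control S2 and at 0.562 and 0.171 CPM in cKO S3 and S5. In the other libraries it was at 1817 to 2400 CPM, so by this RNA both groups mixed the sexes. Positions are GRCm38 (GENCODE), and promoters are RefSeq. Members and gene lists were chosen with earlier results of these data known. Named were the 10 members, Kcnj10, paralogues of member families, and of the other lists up to 8 genes with the lowest unadjusted p under 0.05. Orai1's antisense neighbour, Aldh1l1, Aqp4 and Pdgfra were named after their values were seen. Python 3.11.15 and matplotlib 3.10.9 were used.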

Additional observations from a re-analysis of the deposited data

Results flagged for a closer look

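In cKO S4 the mean log2 CPM of the mural cell markers was 1.29, apart from the 0.746 to 0.786 of the other cKO libraries. This was 1 of 40 groups of 4 libraries examined, in which 2 would be expected to hold such a library by chance. By summed CPM the mural markers did not set cKO S4 apart. Their sum was 40.91 CPM there and higher in cKO S5, at 41.6 CPM. Of these 8 markers, 5 passed the filter on low counts, and 4 had no counts in at least 1 library. The part of such low genes in the mean was not tested. Orai1 was highest in cKO S4, at 52.7 CPM, and without that library its log2 fold change was 1.04.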

How the results depend on the processing

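No member passed the threshold in any of 18 alternatives except Orai1 in DESeq2 (1 member), where 1 other calcium gene, Itpkb, was also called. Kcnj10 passed in all 18, with log2 fold changes of −6.12 to −5.61. All 10 members kept their direction in every alternative that gave a value, except Itpr3, whose log2 fold change ranged from −1.49 to 0.21 when 1 library was left out. The count of genes called, 47, was 87 with at least 1 count in any library, 84 with at least 10 counts in every library, 306 in DESeq2 and 28 with the Xist level as covariate, and 4 (without cKO S4) to 45 when 1 library was left out. FPKM with a pseudocount of 1 or 0.1 called 7 and 8 genes. Scaling by library totals moved the median of all genes from −0.02 to 0.09 and called 48 genes higher and 14 lower (77.4% higher, against 63.8% of 47). Itpr3 and Slc8a1 were not tested under the stricter filter. No paired analysis was possible because no replicate number occurs in both groups. Depth limits Itpr3 and Slc8a1, where 3 counts correspond to 0.128 to 0.218 CPM. These limits cover counting error only.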
